A study of Homo sapiens and Mus musculus with 18 samples.

Results

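The collagen gene family was followed across human cells made from the embryonic stem cell line WA09. Members were all genes whose symbol is COL, a number, A and a number, with Ensembl gene IDs matched to symbols. There were 44 such genes among the 63677 gene IDs of the separate count files, and the same 44 among the 56299 IDs of a second count table, called the human table here. Antisense genes, divergent transcripts and pseudogenes with a collagen stem in their symbol were not members.

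All 6 human groups started from the same stem cell line and passed through splanchnic mesoderm made with WNT3A and BMP4. MLC, mesothelium-like cells, were then given 20 µM SB431542, an inhibitor of TGF-beta receptors, with 4 µM retinoic acid until day 18. MesoT FCS were MesoT cells moved to 10% fetal serum with 8 ng/ml FGF2 and taken at passage 4. Smooth muscle came from splanchnic mesoderm left in culture. MesoT-derived MLC were MesoT cells replated in the medium of MLC. MesoT, the mesothelium culture that served as the reference, received 25 ng/ml WNT3A, 50 ng/ml BMP4 and 4 µM retinoic acid, and was taken at day 22 and at day 18. Smooth muscle had 1 library and each other group had 2. The labels name no clones or separate differentiations, so the spread between libraries may be technical. All groups share 1 cell line, and MesoT cells were passaged with collagenase type IV.

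Collagens are trimeric proteins with a triple helix, secreted as building blocks of the extracellular matrix. Fibrillar collagens form the banded fibres of connective tissue and cartilage, and type IV collagen forms the sheet-like network of basement membranes. FACITs, fibril-associated collagens with interrupted triple helices, sit on the surface of fibres, and transmembrane collagens are anchored in the cell membrane. Mesothelium, the lining of body cavities, rests on a basement membrane over a collagen-rich layer, and mesothelial cells that turn mesenchymal are known for making fibrillar collagen.

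The separate files held MLC, MesoT FCS, smooth muscle and MesoT day 18, and the human table held MesoT-derived MLC, MesoT day 22 and the same labelled day 18 samples, counted again with unequal results. Total counts over the 13 library columns ran between 21148477 and 70679258, the highest in MLC. Levels are CPM, counts scaled to a common library size by TMM within each set, and levels of the separate files are not compared with those of the human table. At day 18 the scaled levels of collagen genes were higher in the human table by a median of 0.355 and 0.255 log2 in replicates 1 and 2. These values include the scaling, with TMM factors of 1.071 and 1.298 in the separate files and 0.8911 and 1.13 in the human table. By plain library totals the summed collagen CPM was 51170 and 28210 in the separate files and 53350 and 28830 in the human table. Of the 44 genes, 33 had scaled levels within 0.5 log2 of each other at day 18 in both replicates, and 5 were too low to judge. COL7A1, COL9A1, COL11A2 and COL13A1 exceeded 0.5 in replicate 1 only, at 0.613, 0.512, 0.617 and 0.656, with the difference in scaling included. COL8A1 (1.295 and 1.345) and COL28A1 (2.159 and 2.438) exceeded it in both replicates. In bulk RNA, fewer cells of a type and less RNA per cell cannot be told apart.

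The labels were set beside defining markers. Summed over 6 mesothelium markers, MLC had 665 and 552 CPM, MesoT FCS 86.9 and 37.0 CPM, smooth muscle 25.1 CPM and MesoT day 18 189 and 273 CPM. Summed over 6 smooth muscle markers, the smooth muscle library had 1016 CPM, inside the range of the day 18 libraries with 1602 and 254 CPM, and none of the 6 was called higher in it. These markers did not set the smooth muscle library apart from MesoT. MYH11, a myosin of contractile smooth muscle, stood at 8.62 CPM in that library and at 6.91 ± 3.11 CPM (SD, n = 2) at MesoT day 18.

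Collagen genes took 2.39% and 2.96% of all counts in MLC, 4.85% and 6.58% in MesoT FCS, 9.25% in smooth muscle and 5.12% and 2.82% at MesoT day 18. In the human table they took 3.47% and 2.40% in MesoT-derived MLC, 3.21% and 2.13% at MesoT day 22 and 5.34% and 2.88% at MesoT day 18. The day 18 replicates differed widely from each other in both sets. The 11 fibrillar genes took between 76.6% and 86.0% of the collagen counts in every library. The 6 basement membrane network genes took 3.35% and 2.97% in MLC, 12.5% and 5.64% in MesoT FCS, 9.70% in smooth muscle and 12.1% and 6.36% at MesoT day 18. MLC had the lowest share of network genes among the separate files. Levels reached a mean of at least 100 CPM in some group for 27 of the 44 genes, and at least 1000 CPM for 11. COL4A3 and COL10A1, a chain of the type X network of hypertrophic cartilage, stayed under 10 counts in every library.

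**Figure D1:**
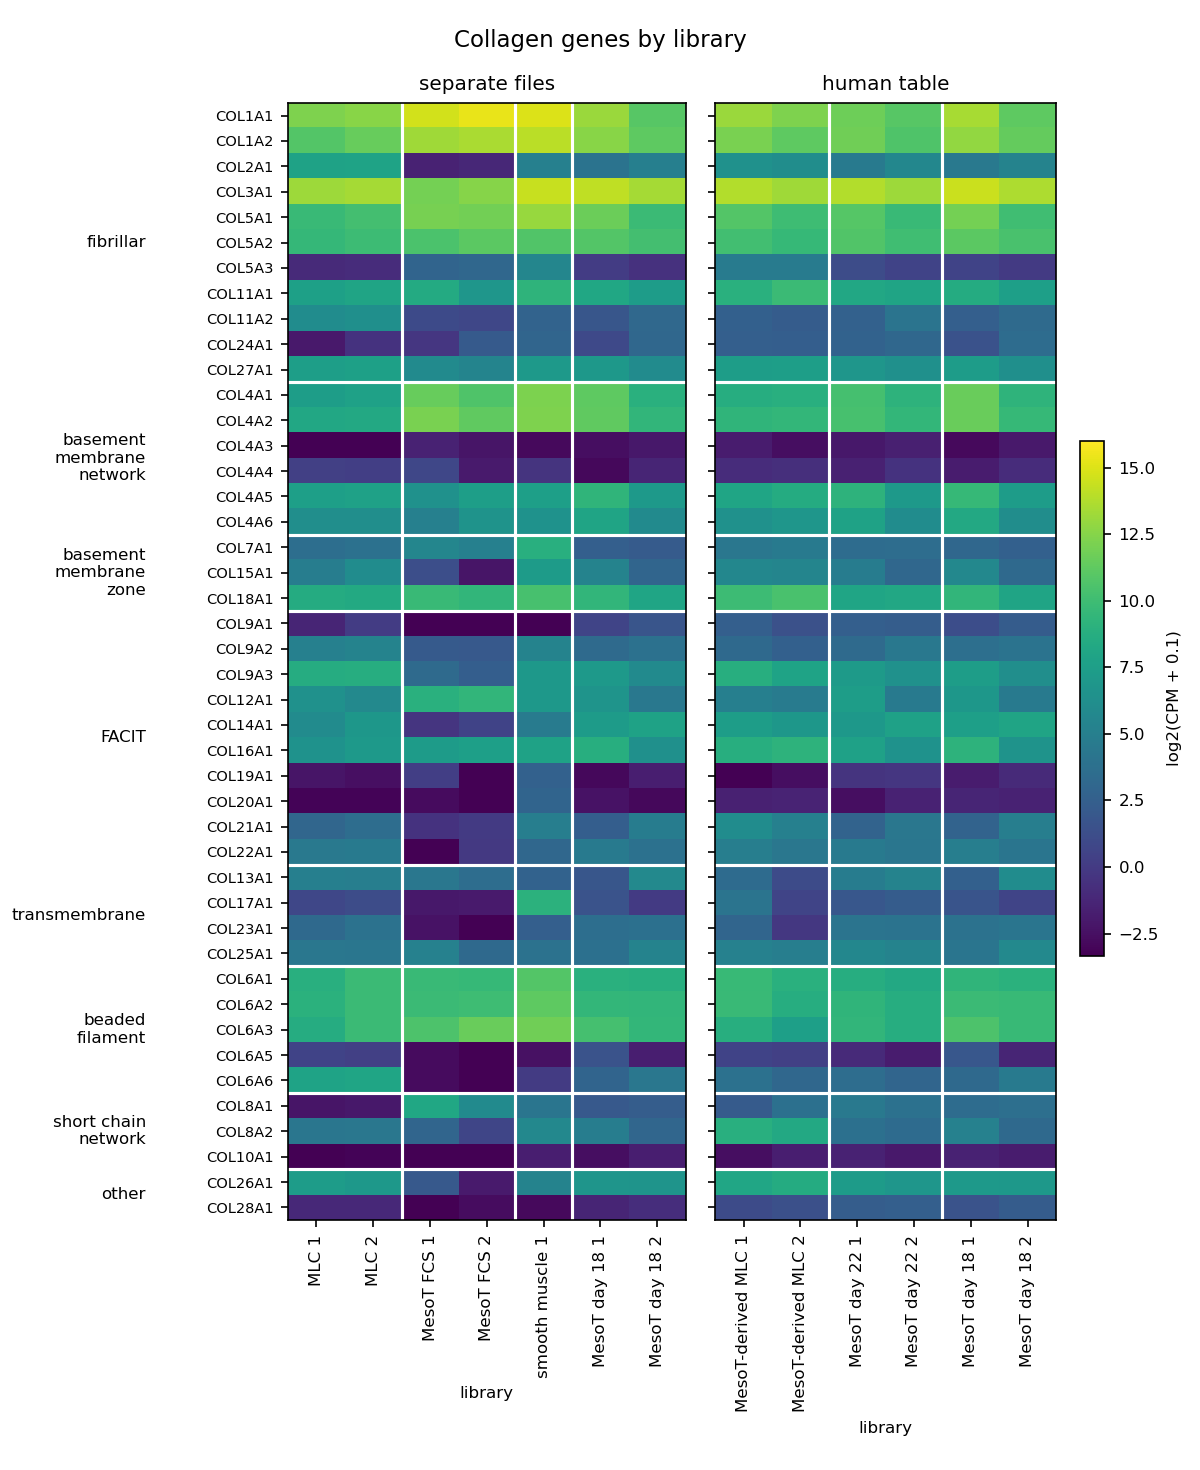
Level of each of the 44 collagen genes, as log2(CPM + 0.1) by color, in the 7 libraries of the separate files and the 6 columns of the human table, grouped by class along the vertical axis. COL2A1, COL6A6 and COL14A1 are dark in both MesoT FCS libraries, and COL8A1 is dark in both MLC libraries.

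A gene was called changed at an adjusted p under 0.05 in edgeR's quasi-likelihood test, adjusted by Benjamini-Hochberg over all genes tested. In the separate files 42 members were tested, and 41 in the human table, where COL20A1 was also too low. Across the 6 comparisons made, 33 members were called at least once and 11 never. The comparisons with MesoT day 18 share its libraries, so that a high or low day 18 library moves all of them. Fold changes are log2 values ± SE, with n = 2 libraries a group unless stated.

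In MLC set against MesoT day 18, 6 members were higher and 3 were lower of 42 tested. Over all 23049 genes tested 24.6% were called, 7.83% higher and 16.8% lower. The median log2 fold change of the members was -0.20, and that of all genes was -0.03. The higher members were COL2A1, COL11A2, COL9A2, COL9A3, COL6A6 and COL7A1, and the lower ones were COL8A1, COL4A1 and COL4A2.

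COL2A1, the chain of type II collagen that forms cartilage fibres, had 228 and 242 CPM in MLC, against 16.6 and 32.0 CPM at MesoT day 18. Its log2 fold change was 3.27 ± 0.33 (edgeR adjusted p = 0.00181). COL11A2, a type XI chain that copolymerises with type II, had 65.9 and 77.0 CPM in MLC, against 3.51 and 9.09 CPM at day 18. Both genes were high in both MLC libraries, with no overlap between the groups. COL11A2 was higher by 3.504 ± 0.46 on the log2 scale (edgeR adjusted p = 0.00453), and by 3.503 with day 18 counts taken from the human table. The FACIT chains of type IX collagen, which decorate type II fibres, were split. COL9A3 had 393 and 419 CPM in MLC, against 138 and 61.8 CPM at day 18 (log2 fold change 2.02 ± 0.46, edgeR adjusted p = 0.0263). COL9A2 had 33.3 and 39.3 CPM in MLC, against 10.4 and 14.3 CPM at day 18 (log2 fold change 1.55 ± 0.23, edgeR adjusted p = 0.00648). COL9A1, the third chain of the same trimer, had 0.304 and 0.968 CPM in MLC, against 1.48 and 3.35 CPM at day 18, and was not called (edgeR adjusted p = 0.144).

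The other fibrillar genes were not called in MLC. COL1A1, the main chain of type I collagen, had 5033 and 6109 CPM in MLC, against 8600 and 1986 CPM at day 18, with MLC inside the range of day 18 (log2 fold change 0.07 ± 0.69, edgeR adjusted p = 0.949). Without day 18 replicate 1, COL1A1 was called higher at 1.58 (edgeR adjusted p = 0.0444). COL14A1, a FACIT on type I fibres, had 62.95 and 119.6 CPM in MLC, against 153 and 223 CPM at day 18, and was not called (log2 fold change -1.04 ± 0.41, edgeR adjusted p = 0.115). COL11A1, the partner chain of COL11A2, had 206 and 246 CPM in MLC, against 299 and 163 CPM at day 18, and the groups overlapped. COL27A1, a minor fibrillar collagen known from cartilage, had 184 and 204 CPM in MLC, against 129 and 62.7 CPM at day 18, with an edgeR adjusted p of 0.0966. Of 10 cartilage markers, SOX6 was called higher in MLC, at 98.6 ± 15.6 CPM against 29.2 ± 8.34 CPM at day 18, while SOX9 and HAPLN1 were called lower. SOX9, the main transcription factor of cartilage cells, had 12.8 and 15.8 CPM in MLC, against 79.5 and 50.5 CPM at day 18. ACAN, which encodes the cartilage proteoglycan aggrecan, had 0.198 and 0.128 CPM in MLC, against 0.0644 and 0.0683 CPM at day 18. The 10 markers summed to 129 and 159 CPM in MLC and to 157 and 121 CPM at day 18, and their part in the result was not tested.

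COL6A6, an additional chain of type VI collagen, the beaded filament around cells, had 235 and 262 CPM in MLC, against 7.41 and 20.4 CPM at MesoT day 18. It had the largest positive log2 fold change of the members called in MLC, 4.16 ± 0.52 (edgeR adjusted p = 0.0036). The main chains of the same filament, COL6A1, COL6A2 and COL6A3, overlapped between the groups. COL6A1 had 479 and 907 CPM in MLC, against 502 and 437 CPM at day 18 (log2 fold change 0.56 ± 0.33, edgeR adjusted p = 0.262). COL7A1, which forms the anchoring fibrils below a basement membrane, had 12.4 and 14.3 CPM in MLC, against 5.57 and 4.51 CPM at day 18. COL7A1 was higher by 1.41 ± 0.22 (edgeR adjusted p = 0.00803), and by 1.18 with day 18 counts taken from the human table (edgeR adjusted p = 0.0135). COL8A1, a short chain of the hexagonal networks under endothelia, had 0.119 and 0.142 CPM in MLC, against 4.22 and 5.02 CPM at day 18, and was called lower (log2 fold change -5.11 ± 0.89, edgeR adjusted p = 0.0112). Its partner COL8A2 had 18.8 and 20.6 CPM in MLC, against 28.3 and 8.23 CPM at day 18, and was not called (edgeR adjusted p = 0.936). The calls of COL6A6 and COL8A1 each concerned 1 chain of a family whose other tested chains were not called.

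Leaving out either MLC library ended the calls of COL4A1, COL4A2, COL7A1, COL8A1 and COL9A3, with edgeR adjusted p between 0.0516 and 0.238, and leaving out MLC 2 ended that of COL9A2 (edgeR adjusted p = 0.0683). COL2A1, COL6A6 and COL11A2 were called under each of 11 alternatives. Markers of other cells moved with this comparison. Mitochondrial genes took 6.84% and 7.77% of counts in MLC, against 3.42% and 3.35% at day 18. Of 6 smooth muscle markers, 5 were called lower, with sums of 104 and 78.8 CPM in MLC and 1602 and 254 CPM at day 18. Of the 5 endothelium markers tested, 4 were called lower, with sums of 18.7 and 18.2 CPM in MLC and 27.4 and 32.6 CPM at day 18. PECAM1 of that list was at 0 in every library. Of 5 hepatocyte markers, 4 were called higher, with sums of 114 and 50.3 CPM in MLC and 0.676 and 1.98 CPM at day 18. Of 6 mesothelium markers WT1 and BNC1 were called higher, and of 7 mesenchyme markers THY1 was called lower, with mesenchyme sums of 1724 and 2061 CPM in MLC and 1683 and 1555 CPM at day 18. The part of these markers in the collagen results was not tested.

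**Figure D2:**
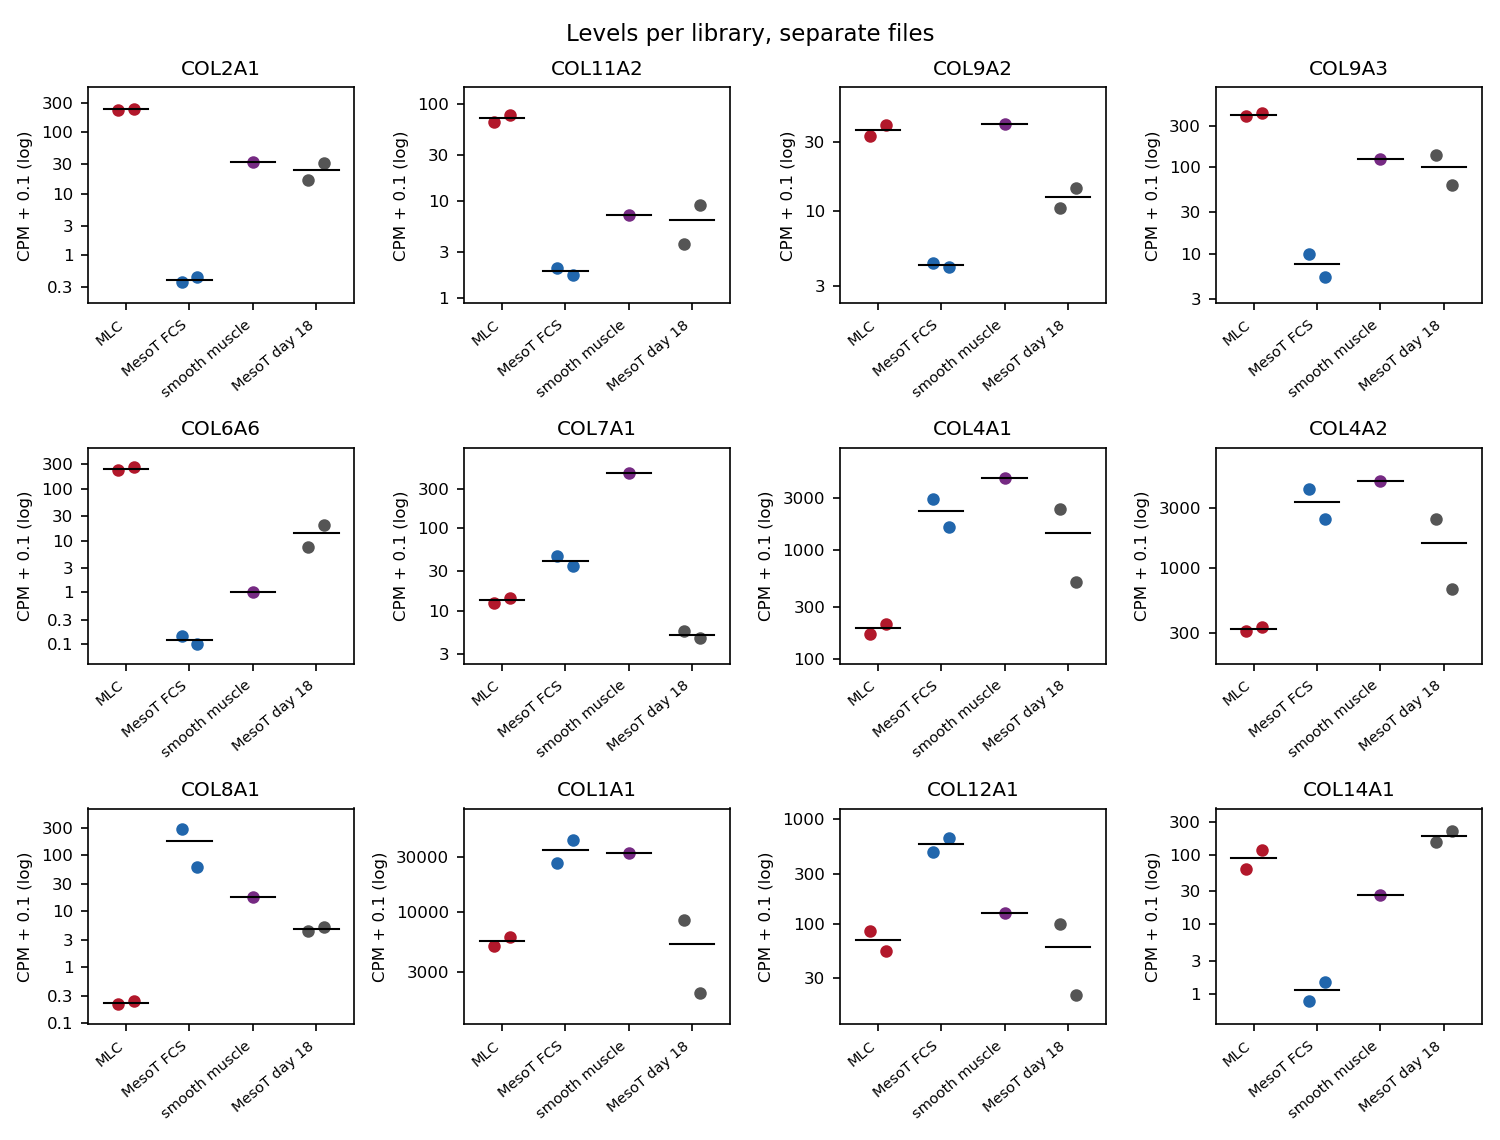
CPM + 0.1 on a log axis in each library of the separate files for 12 collagen genes, with a bar at the group mean. COL2A1, COL11A2 and COL6A6 are highest in MLC and lowest in MesoT FCS, COL7A1 is lowest at MesoT day 18, and COL1A1 differs widely between the day 18 replicates at 8600 and 1986 CPM.

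Type IV collagen is built from 6 chains whose genes lie in 3 head-to-head pairs. The windows of COL4A1 and COL4A2 and of COL4A5 and COL4A6 are shown because their levels are compared chain by chain below. Each window holds 250 bases before and 50 bases from the RefSeq start of the gene, on build GRCh38.p14, written 5′ to 3′ on the strand of the gene. Capitals mark the bases that also lie in the window of the partner. COL4A1 lies on the minus strand at chr13:110307108-110307407 and COL4A2 on the plus strand at chr13:110307034-110307333. COL4A5 lies on the plus strand at chrX:108439588-108439887 and COL4A6 on the minus strand at chrX:108439409-108439708.
COL4A1: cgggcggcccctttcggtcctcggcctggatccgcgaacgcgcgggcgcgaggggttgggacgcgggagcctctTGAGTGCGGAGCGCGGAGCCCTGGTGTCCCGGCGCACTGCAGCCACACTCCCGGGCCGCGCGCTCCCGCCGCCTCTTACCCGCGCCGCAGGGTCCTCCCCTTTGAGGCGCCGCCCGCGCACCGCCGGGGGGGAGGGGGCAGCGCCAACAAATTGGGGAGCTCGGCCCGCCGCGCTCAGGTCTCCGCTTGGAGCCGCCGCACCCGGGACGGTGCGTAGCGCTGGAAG
COL4A2: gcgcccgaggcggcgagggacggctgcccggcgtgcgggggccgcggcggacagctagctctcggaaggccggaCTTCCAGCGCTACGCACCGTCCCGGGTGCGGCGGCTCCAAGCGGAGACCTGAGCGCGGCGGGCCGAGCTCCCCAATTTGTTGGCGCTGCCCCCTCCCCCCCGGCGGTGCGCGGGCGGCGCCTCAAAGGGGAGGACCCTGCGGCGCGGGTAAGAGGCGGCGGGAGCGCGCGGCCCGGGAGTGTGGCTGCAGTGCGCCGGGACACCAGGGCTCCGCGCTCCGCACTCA
COL4A5: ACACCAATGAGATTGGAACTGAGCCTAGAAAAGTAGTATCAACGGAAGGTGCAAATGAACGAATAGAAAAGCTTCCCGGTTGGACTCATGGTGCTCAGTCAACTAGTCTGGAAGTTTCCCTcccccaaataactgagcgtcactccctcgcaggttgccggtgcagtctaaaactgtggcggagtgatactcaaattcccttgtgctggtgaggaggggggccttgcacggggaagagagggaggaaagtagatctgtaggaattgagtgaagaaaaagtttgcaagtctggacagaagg
COL4A6: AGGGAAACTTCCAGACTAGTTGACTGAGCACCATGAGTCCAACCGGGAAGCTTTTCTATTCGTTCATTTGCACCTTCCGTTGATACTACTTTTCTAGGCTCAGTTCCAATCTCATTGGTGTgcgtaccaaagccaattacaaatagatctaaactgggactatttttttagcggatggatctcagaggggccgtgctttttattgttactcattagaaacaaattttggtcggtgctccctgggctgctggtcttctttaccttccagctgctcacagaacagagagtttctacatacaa

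The starts of COL4A1 and COL4A2 were 127 bases apart and their windows shared 226 bases, of which 76.5% were G or C. Those of COL4A5 and COL4A6 were 380 bases apart and shared 121 bases with 44.6% G or C. The median over all 35116 RefSeq windows was 58.7% G or C for the whole window. Motifs were searched on both strands. GGGCGG, the GC box, was found 2 times in the COL4A1 window and 1 time in the COL4A2 window, and in neither window of COL4A5 and COL4A6. CCAAT was found 1 time in each of the COL4A1 and COL4A2 windows, 2 times in that of COL4A5 and 3 times in that of COL4A6, and TATAAA in none of the 4. Among all windows 45% held GGGCGG, 34.6% held CCAAT and 11.5% held TATAAA. Of the 44 members 32 had a window in the RefSeq table, some of them several, and of their 44 windows 54.5% held GGGCGG, 31.8% CCAAT and 18.2% TATAAA. These matches describe letters in the windows and not sites bound by a factor.

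COL4A1 had 169 and 209 CPM in MLC, against 2384 and 505 CPM at MesoT day 18. COL4A2 had 311 and 330 CPM in MLC, against 2483 and 673 CPM at day 18. Both genes were low in both MLC libraries, and the day 18 replicates differed widely from each other. The log2 fold change was -2.93 ± 0.75 for COL4A1 (edgeR adjusted p = 0.0382). It was -2.30 ± 0.64 for COL4A2 (edgeR adjusted p = 0.0483), a gene whose reads cannot be told apart from those of its antisense genes where counting ignores strand. Without day 18 replicate 1 they were -1.33 for COL4A1 (edgeR adjusted p = 0.0575) and -0.98 for COL4A2 (edgeR adjusted p = 0.0987), and leaving out either MLC library also ended both calls, at 0.188 or more.

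COL4A5 had 194 and 210 CPM in MLC, 88.3 and 182 CPM in MesoT FCS, 193 CPM in smooth muscle and 634 and 143 CPM at MesoT day 18. COL4A6 followed at 73.8 and 73.3 CPM in MLC, 33.7 and 95.9 CPM in MesoT FCS, 93.2 CPM in smooth muscle and 254.5 and 60.7 CPM at day 18. Neither was called in any comparison. The ratio of COL4A5 to COL4A6 counts lay between 1.89 and 3.35 over all 13 columns, while the level of COL4A5 varied 7.18-fold within the separate files. The ratio of COL4A1 to COL4A2 counts lay between 0.545 and 1.01, with the lowest values in MLC. The highest ratio of each pair was 1.76 and 1.51 times its lowest in the separate files, and 1.55 and 1.62 times in the human table. A narrow ratio was not particular to these pairs, since COL6A1 over COL6A2 varied 1.52-fold and 1.78-fold in the same sets. The size of such a ratio depends on transcript length, so only its change across libraries is read. COL4A4 stayed at or under 1.65 CPM in every library of the separate files.

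**Figure D3:**
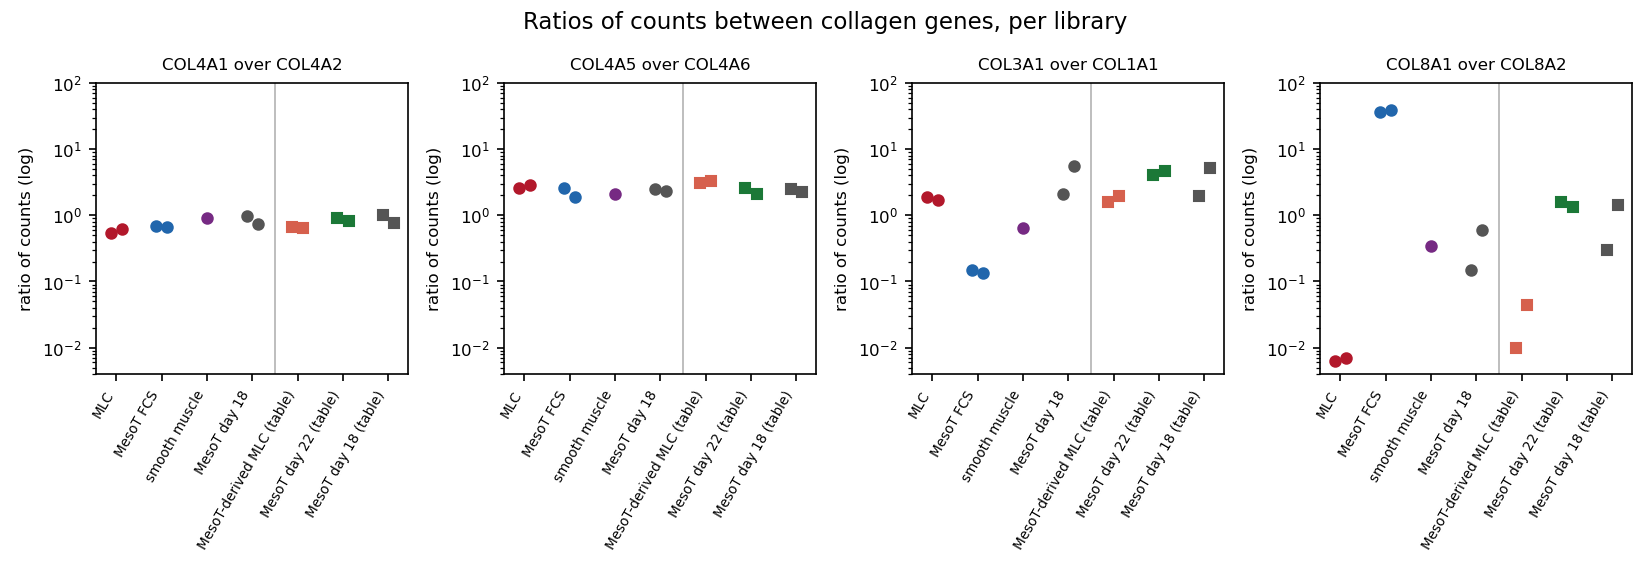
Ratio of counts between 2 collagen genes in each library on a log axis, with circles for the separate files and squares for the human table. COL4A1 over COL4A2 and COL4A5 over COL4A6 stay in a narrow band, COL3A1 over COL1A1 is lowest in MesoT FCS, and COL8A1 over COL8A2 is near 40 in MesoT FCS and under 0.01 in MLC.

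In MesoT FCS set against MesoT day 18, 5 members were higher and 13 were lower of 42 tested. Over all genes tested 27.3% were called, 13.0% higher and 14.4% lower. The median log2 fold change of the members was -0.99, and that of all genes was -0.16. Among fibrillar genes COL1A1 and COL5A3 were higher, and COL2A1, COL3A1 and COL11A2 lower. Of the 10 FACIT genes, COL12A1 was higher, and COL9A1, COL9A2, COL9A3, COL14A1, COL21A1 and COL22A1 were lower.

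COL1A1 had 26910 and 42650 CPM in MesoT FCS, against 8600 and 1986 CPM at MesoT day 18. Its log2 fold change was 2.72 ± 0.73 (edgeR adjusted p = 0.0407). COL1A2, its partner in the trimer, had 9771 and 12060 CPM in MesoT FCS, against 5918 and 2342 CPM at day 18, and missed the threshold at 1.402 ± 0.51 (edgeR adjusted p = 0.0871). COL3A1, the chain of type III collagen of pliable tissue, had 3997 and 5821 CPM in MesoT FCS, against 17830 and 10880 CPM at day 18 (log2 fold change -1.55 ± 0.39, edgeR adjusted p = 0.0331). The ratio of COL3A1 to COL1A1 counts was 0.149 and 0.137 in MesoT FCS, against 2.07 and 5.48 at day 18. It was 1.87 and 1.72 in MLC and 0.643 in smooth muscle. The 2 fibrillar collagens thus moved in opposite directions in the serum cultures.

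Other members rose in MesoT FCS from low levels at day 18. COL12A1, a FACIT of dense connective tissue, had 489 and 662 CPM in MesoT FCS, against 99.7 and 20.8 CPM at day 18 (log2 fold change 3.25 ± 0.74, edgeR adjusted p = 0.0257). COL8A1 had 294 and 61.0 CPM in MesoT FCS, against 4.22 and 5.02 CPM at day 18, and was higher by 5.26 ± 0.78 (edgeR adjusted p = 0.00911). With day 18 counts taken from the human table that value was 4.18 (edgeR adjusted p = 0.00498). COL8A1 differed between the MesoT FCS libraries, and both stood above every other library of the set. COL7A1 had 46.4 and 34.5 CPM in MesoT FCS, against 5.57 and 4.51 CPM at day 18 (log2 fold change 3.00 ± 0.23, edgeR adjusted p = 0.00272). COL5A3, a minor chain of type V collagen, had 7.54 and 8.76 CPM in MesoT FCS, against 0.999 and 0.581 CPM at day 18 (log2 fold change 3.36 ± 0.35, edgeR adjusted p = 0.00447).

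Several of the lower members were nearly absent from MesoT FCS. COL2A1 had 0.268 and 0.335 CPM in MesoT FCS, against 16.6 and 32.0 CPM at day 18 (log2 fold change -6.33 ± 0.45, edgeR adjusted p = 0.00229). COL14A1 had 0.670 and 1.395 CPM in MesoT FCS, against 153 and 223 CPM at day 18 (log2 fold change -7.53 ± 0.56, edgeR adjusted p = 0.00251). COL6A6 had 1 count in MesoT FCS and 828 at day 18, a ratio of scaled counts of 0.00181 (95% exact binomial interval 4.57e-05 to 0.0101). The transmembrane collagen COL23A1 had 2 counts in MesoT FCS and 801 at day 18, a ratio of 0.00374 (95% exact binomial interval 0.000452 to 0.0135). COL9A1 had 0 counts in MesoT FCS and 144 at day 18, which makes it at least 32.1-fold lower with a floor of 3 counts over the group. COL26A1 had 4.15 and 0.168 CPM in MesoT FCS, against 110 and 102 CPM at day 18 (log2 fold change -5.57 ± 1.03, edgeR adjusted p = 0.0156). These intervals and floors cover counting error only.

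The remaining lower members were spread over several classes. The log2 fold change was -3.72 ± 0.50 for COL9A3 and -1.58 ± 0.24 for COL9A2, whose 3 type IX chains were therefore all lower. COL22A1, a FACIT of tissue junctions, was at 0 and 0.837 CPM in MesoT FCS, against 25.1 and 14.48 CPM at day 18. COL21A1 was at 0.625 and 0.893 CPM in MesoT FCS, against 5.44 and 26.98 CPM at day 18. COL17A1, the transmembrane collagen of hemidesmosomes, was at 0.134 and 0.168 CPM in MesoT FCS, against 2.96 and 0.888 CPM at day 18. COL11A2 was at 1.96 and 1.62 CPM in MesoT FCS, against 3.51 and 9.09 CPM at day 18. All 4 had lower values in both MesoT FCS libraries than in either day 18 library. Of the 42 members tested, 18 were separated in this way, and the share over all genes was not counted.

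Leaving out either MesoT FCS library ended the calls of COL1A1, COL3A1, COL9A1, COL11A2, COL12A1, COL17A1 and COL21A1, with edgeR adjusted p between 0.0559 and 0.153. In the cartilage list HAPLN1 and MATN3 were called higher, and SOX5 and SOX6 lower, with sums of 237 and 223 CPM in MesoT FCS and 157 and 121 CPM at day 18. Of the 6 smooth muscle markers 1 was called higher, with sums of 7104 and 1683 CPM in MesoT FCS and 1602 and 254 CPM at day 18. Of 5 endothelium markers tested 3 were called lower, with sums of 41.3 and 10.4 CPM in MesoT FCS and 27.4 and 32.6 CPM at day 18. Of 6 mesothelium markers WT1 and UPK3B were called lower, with sums of 86.9 and 37.0 CPM in MesoT FCS and 189 and 273 CPM at day 18. Of 7 basal epidermis markers TP63 and ITGB4 were called lower, with sums of 165 and 35.1 CPM in MesoT FCS and 119 and 102 CPM at day 18. KRT5 and DSG3 of that list were at 0 in both MesoT FCS libraries, and KRT5 in 1 of the day 18 libraries. Of 7 mesenchyme markers DCN and LUM were called lower, with sums of 1316 and 1402 CPM in MesoT FCS and 1683 and 1555 CPM at day 18. Of 5 hepatocyte markers APOB was called lower, with sums of 0.0893 and 0.223 CPM in MesoT FCS and 0.676 and 1.98 CPM at day 18. The part of these markers in the collagen results was not tested.

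**Figure D4:**
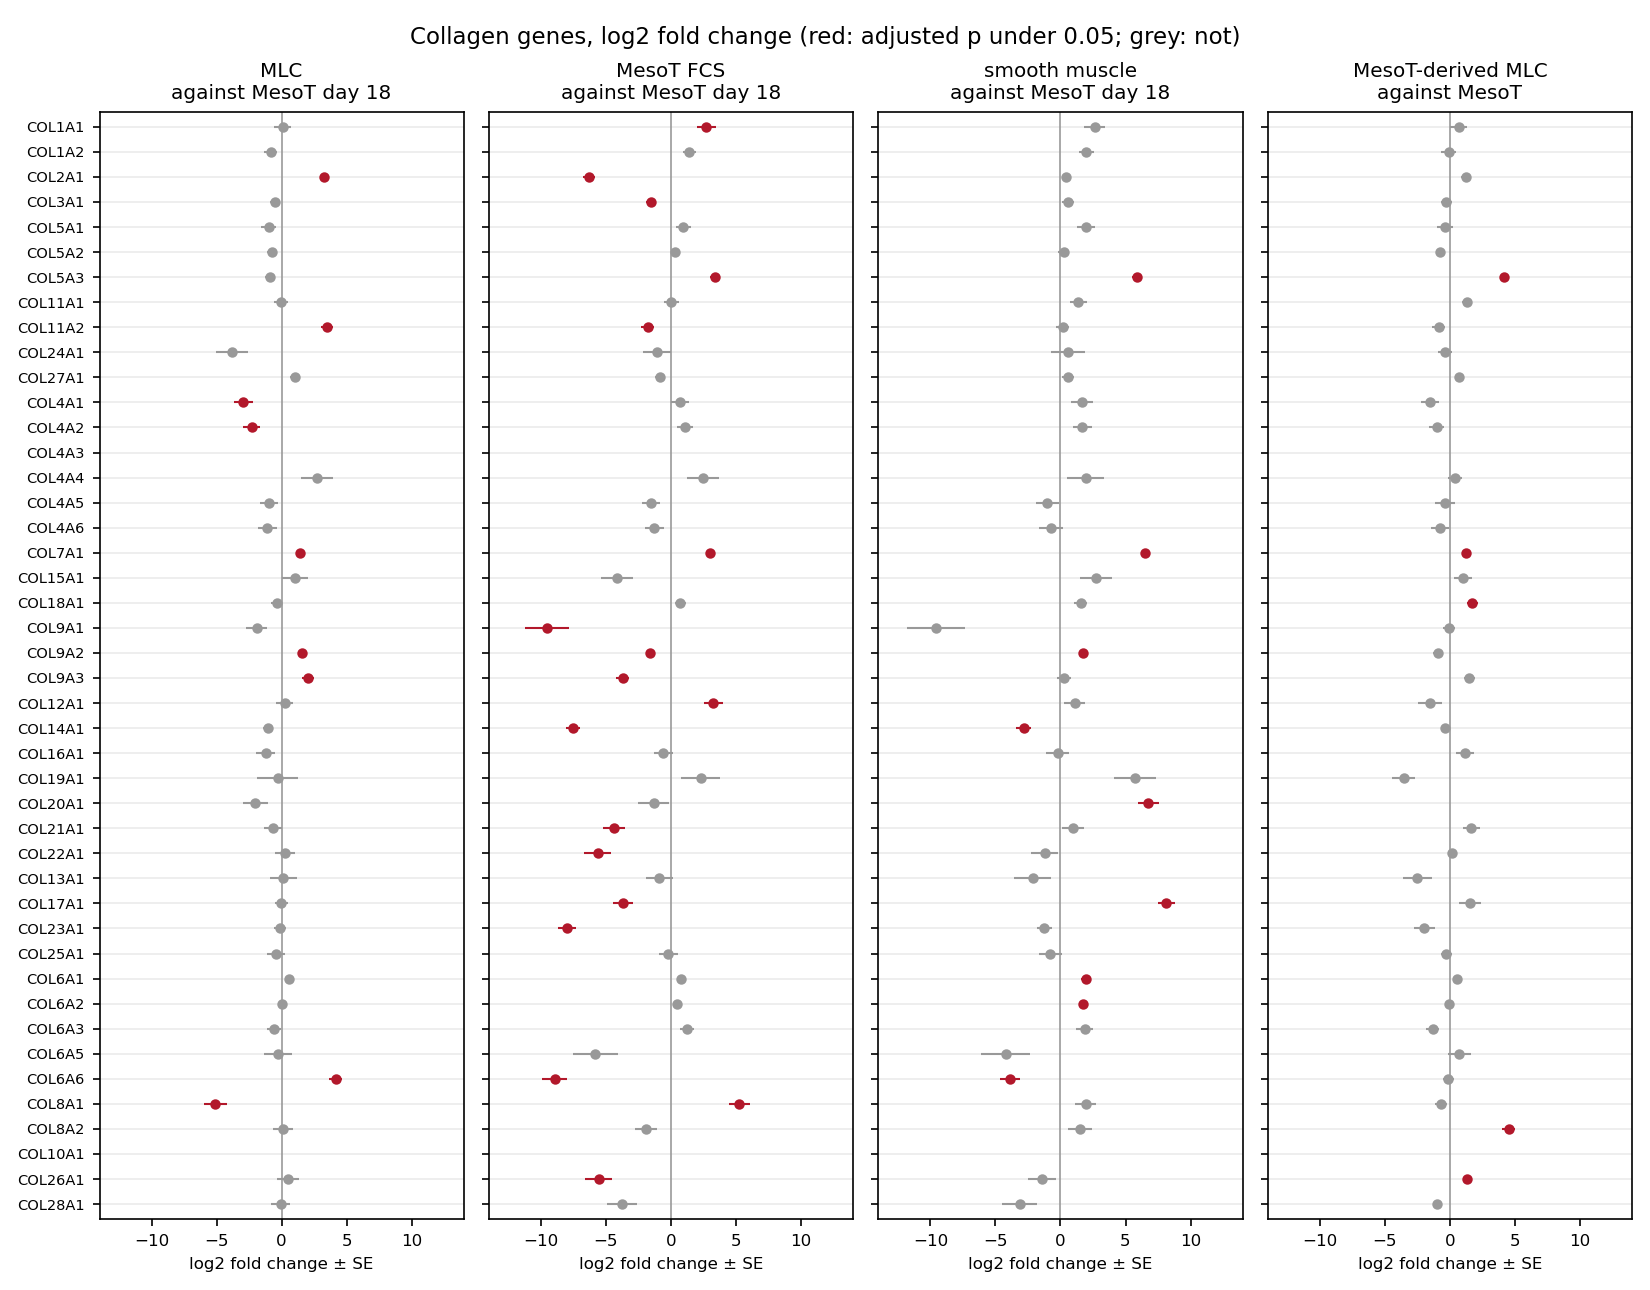
log2 fold change ± SE of each collagen gene in 4 comparisons, with genes down the vertical axis, red points for an adjusted p under 0.05 and no point for a gene not tested; values fitted against 0 to 3 counts give no size. COL7A1 lies to the right in all 4 panels, and COL2A1 and COL6A6 lie on opposite sides in the MLC and MesoT FCS panels.

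Set directly against MesoT FCS, MLC had 16 members called higher and 11 called lower of 42 tested, where 48.9% of all genes were called, 22.6% higher and 26.3% lower. The median log2 fold change of the members was 0.23, and that of all genes was 0. COL2A1 was higher in MLC by 9.60 ± 0.48 (edgeR adjusted p = 0.000188), COL9A3 by 5.74 ± 0.54 (edgeR adjusted p = 0.000875) and COL14A1 by 6.49 ± 0.54 (edgeR adjusted p = 0.000606). COL6A6 had 36207 counts in MLC and 1 in MesoT FCS, a ratio of scaled counts of 10000 (95% exact binomial interval 1800 to 395000). COL27A1 was also higher, and so were COL15A1 and the transmembrane genes COL17A1 and COL23A1. COL15A1, a collagen of the basement membrane zone, had 28.4 and 67.5 CPM in MLC, against 2.46 and 0.112 CPM in MesoT FCS.

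The lower members in MLC were 5 fibrillar genes, COL1A1, COL1A2, COL5A1, COL5A2 and COL5A3, together with COL4A1, COL4A2, COL6A3, COL7A1, COL8A1 and COL12A1. COL5A1, a chain of type V collagen that starts fibre assembly, had 859 and 1193 CPM in MLC, against 4113 and 3819 CPM in MesoT FCS, differing by -1.95 ± 0.59 on the log2 scale (edgeR adjusted p = 0.0374). COL5A2, its partner, had 763 and 973 CPM in MLC, against 1457 and 2235 CPM in MesoT FCS, differing by -1.09 ± 0.34 on the log2 scale (edgeR adjusted p = 0.0398). COL6A3 had 400 and 902 CPM in MLC, against 1523 and 3059 CPM in MesoT FCS, differing by -1.81 ± 0.56 on the log2 scale (edgeR adjusted p = 0.0383). COL8A1 differed most, by -10.37 ± 1.01 (edgeR adjusted p = 0.000959). COL6A5 and COL28A1 were called higher in MLC, but MesoT FCS had 1 count of each. COL18A1, a basement membrane zone collagen, had 372 and 348 CPM in MLC, against 864 and 668 CPM in MesoT FCS, and was not called (edgeR adjusted p = 0.0796). Of the 27 calls, 12 held under every alternative and 15 were lost without at least 1 library, with edgeR adjusted p up to 0.213. Leaving out MLC 2 or MLC 1 left fewer members called in either direction, and fewer genes in all were called in these fits too.

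Markers of other cells moved with this comparison too. Of 5 hepatocyte markers 5 were called higher in MLC, with sums of 114 and 50.3 CPM in MLC and 0.0893 and 0.223 CPM in MesoT FCS, where ALB, APOB and TTR were at 0 in both libraries. Of 6 mesothelium markers 5 were called higher, with sums of 665 and 552 CPM in MLC and 86.9 and 37.0 CPM in MesoT FCS. Of 6 smooth muscle markers 5 were called lower, with sums of 104 and 78.8 CPM in MLC and 7104 and 1683 CPM in MesoT FCS. Basal epidermis had 3 of 7 markers higher, with sums of 121 and 158 CPM in MLC and 165 and 35.1 CPM in MesoT FCS. Endothelium had 2 of 5 tested markers lower, with sums of 18.7 and 18.2 CPM in MLC and 41.3 and 10.4 CPM in MesoT FCS. Mesenchyme had 3 of 7 markers higher and 3 lower, with sums of 1724 and 2061 CPM in MLC and 1316 and 1402 CPM in MesoT FCS. Cartilage had SOX5 and SOX6 higher and SOX9, MATN3 and HAPLN1 lower of 10 markers, with sums of 129 and 159 CPM in MLC and 237 and 223 CPM in MesoT FCS. Mitochondrial genes took 6.84% and 7.77% of counts in MLC, against 2.88% and 2.48% in MesoT FCS. The part of these values in the collagen results was not tested.

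The smooth muscle library set against MesoT day 18 had 7 members higher and 2 lower of 42 tested, where 8.67% of all genes were called, 5.08% higher and 3.58% lower. The group has n = 1, and the fit assumes that it varies like the other groups. The median log2 fold change of the members was 1.01, and that of all genes was -0.08. COL7A1 had 466 CPM in smooth muscle, against 5.57 and 4.51 CPM at day 18 (log2 fold change 6.53 ± 0.28, edgeR adjusted p = 0.00524). COL17A1 had 544 CPM in smooth muscle, against 2.96 and 0.888 CPM at day 18 (log2 fold change 8.13 ± 0.65, edgeR adjusted p = 0.0104). Both encode proteins that fix epidermis to its basement membrane. COL5A3 had 47.1 CPM in smooth muscle, against 0.999 and 0.581 CPM at day 18 (log2 fold change 5.89 ± 0.40, edgeR adjusted p = 0.00704).

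Markers of other cells moved with these genes. Of 7 such markers 5 were called higher in smooth muscle, with a sum of 1889 CPM in that library and 119 and 102 CPM at day 18. KRT5, a keratin of basal epidermal cells, had 870 CPM in smooth muscle, against 0 and 0.307 CPM at day 18. KRT14, its partner keratin, had 259 CPM in smooth muscle, against 0.0966 and 0.0683 CPM at day 18. None of the 7 was at 0 in the smooth muscle library. Of 10 cartilage markers COMP and MATN3 were called higher and SOX6 lower, with a sum of 357 CPM in smooth muscle and 157 and 121 CPM at day 18. COMP, a cartilage and tendon matrix protein, had 186 CPM in smooth muscle, against 0.419 and 0.0683 CPM at day 18. Of 6 mesothelium markers CALB2 was called higher and WT1 and LRRN4 lower, with a sum of 25.1 CPM in smooth muscle and 189 and 273 CPM at day 18. Of 5 hepatocyte markers SERPINA1 was called higher, with a sum of 5.45 CPM in smooth muscle and 0.676 and 1.98 CPM at day 18. Of 7 mesenchyme markers DCN was called lower, with a sum of 2188 CPM in smooth muscle and 1683 and 1555 CPM at day 18. The part of these markers in the collagen results was not tested.

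COL6A1 had 1849 CPM in smooth muscle, against 502 and 437 CPM at day 18 (log2 fold change 1.98 ± 0.39, edgeR adjusted p = 0.0377). COL6A2 had 2391 CPM in smooth muscle, against 721 and 685 CPM at day 18 (log2 fold change 1.77 ± 0.37, edgeR adjusted p = 0.0433). COL6A6 had 0.936 CPM in smooth muscle, against 7.41 and 20.4 CPM at day 18, and was lower, as was COL14A1 at 26.4 CPM against 153 and 223 CPM. COL9A2 and COL20A1 were higher, the last at 7.53 CPM in smooth muscle against 0.0966 and 0.0342 CPM at day 18. The large fibrillar genes were high in the library but not called. COL1A1 had 32880 CPM in smooth muscle, against 8600 and 1986 CPM at day 18 (log2 fold change 2.63 ± 0.81, edgeR adjusted p = 0.0944). COL4A1, a basement membrane network gene, had 4601 CPM in smooth muscle, against 2384 and 505 CPM at day 18, and was not called either. Without day 18 replicate 1, more members were called higher, COL1A1 among them at a log2 fold change of 4.025. The call of COL6A2 was lost at a log2 fold change of 1.781. Calls over all genes rose in that fit too. Without replicate 2 the calls of COL6A2 (edgeR adjusted p = 0.0745), COL6A1 (edgeR adjusted p = 0.0698) and COL14A1 (edgeR adjusted p = 0.0556) were lost, and a fit to these 3 libraries alone called no gene at all.

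In the human table, MesoT-derived MLC set against MesoT of both days (n = 4) had 5 members higher and 0 lower of 41 tested, where 9.95% of all genes were called, 6.63% higher and 3.32% lower. The median log2 fold change of the members was -0.09, and that of all genes was -0.05. Of the members 4 were lower at an unadjusted p under 0.05. DESeq2 called 4 lower and limma voom 0, with 4604 and 2033 genes called in all. The higher members were COL5A3, COL8A2, COL18A1, COL7A1 and COL26A1.

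COL5A3 had 26.4 and 25.9 CPM in MesoT-derived MLC, against 2.198 and 1.42 CPM at MesoT day 22 and 1.37 and 0.880 CPM at day 18 (log2 fold change 4.19 ± 0.28, edgeR adjusted p = 0.00798). COL8A2 had 459 and 320 CPM in MesoT-derived MLC, against 13.9 and 10.8 CPM at day 22 and 36.5 and 9.53 CPM at day 18 (log2 fold change 4.53 ± 0.51, edgeR adjusted p = 0.0142). Both genes were far above all 4 MesoT libraries. COL18A1 had 980 and 1392 CPM in MesoT-derived MLC, against 260 and 301 CPM at day 22 and 664 and 245 CPM at day 18 (log2 fold change 1.73 ± 0.40, edgeR adjusted p = 0.0493). COL26A1 had 281 and 380 CPM in MesoT-derived MLC, against 155 and 111 CPM at day 22 and 141 and 124 CPM at day 18 (log2 fold change 1.31 ± 0.22, edgeR adjusted p = 0.0252). COL7A1 had 20.0 and 23.0 CPM in MesoT-derived MLC, against 11.3 and 11.8 CPM at day 22 and 8.79 and 6.12 CPM at day 18 (log2 fold change 1.21 ± 0.21, edgeR adjusted p = 0.0288). COL18A1 has antisense genes whose reads may have been counted with it.

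Members that marked MLC were followed in the replated cells. COL2A1 had 89.0 and 71.5 CPM in MesoT-derived MLC, against 24.0 and 50.3 CPM at day 22 and 22.2 and 39.95 CPM at day 18, and was not called (edgeR adjusted p = 0.0787). COL9A3 had 447 and 239 CPM in MesoT-derived MLC, against 151 and 87.5 CPM at day 22 and 177 and 76.2 CPM at day 18, and was not called (edgeR adjusted p = 0.0795). COL9A2, its partner chain, went the other way and was not called. The mean of COL9A2 in MesoT-derived MLC was 7.81 ± 2.43 CPM (SD, n = 2). At day 22 it was 15.41 ± 7.52 CPM and at day 18 it was 14.75 ± 2.42 CPM. COL6A6 had 14.9 and 8.83 CPM in MesoT-derived MLC, against 12.1 and 7.70 CPM at day 22 and 9.86 and 23.5 CPM at day 18, and COL11A2 also overlapped MesoT or lay below it. COL4A1 had 430 and 470 CPM in MesoT-derived MLC, against 1232 and 581 CPM at day 22 and 3090 and 616 CPM at day 18. The difference between the MLC and MesoT-derived MLC routes was not tested, since they were counted and scaled in separate sets.

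Leaving out either MesoT day 22 library or either MesoT-derived MLC library ended the calls of COL7A1, COL8A2, COL18A1 and COL26A1. Far fewer genes in all were called in these fits than in the main fit, so the loss was not particular to these members. COL5A3 lost its call without MesoT day 22 replicate 1 or without MesoT-derived MLC replicate 2, with log2 fold changes of 4.377 and 4.226. Without the high day 18 replicate 1, more members were called higher than in the main fit, and more genes in all were called. Of 6 mesothelium markers 4 were called higher, with sums of 1332 and 2125 CPM in MesoT-derived MLC, 212 and 396 CPM at day 22 and 240 and 324 CPM at day 18. Of 4 hepatocyte markers tested all 4 were called higher, and the list of 5 summed to 79.9 and 196 CPM in MesoT-derived MLC, 0.766 and 3.12 CPM at day 22 and 1.37 and 2.71 CPM at day 18. ITGB4 of 7 basal epidermis markers was called higher, with sums of 317 and 297 CPM in MesoT-derived MLC, 154 and 169 CPM at day 22 and 162 and 145 CPM at day 18. SOX9 of 10 cartilage markers was called lower, with sums of 117 and 91.0 CPM in MesoT-derived MLC, 115 and 134.5 CPM at day 22 and 194 and 147 CPM at day 18. ERG of 6 endothelium markers was called lower, with sums of 50.1 and 25.4 CPM in MesoT-derived MLC, 28.7 and 49.0 CPM at day 22 and 39.8 and 44.8 CPM at day 18. The part of these markers in the collagen result was not tested.

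MesoT day 22 set against MesoT day 18 gave no call by edgeR for any member or any of the 22316 genes tested, a background of 0% in each direction, and DESeq2 and limma voom also called 0. At an unadjusted p under 0.05 there were 2 members, COL6A5 and COL7A1, and 171 genes in all. COL1A1 had 3378 and 1979 CPM at day 22, against 11070 and 2397 CPM at day 18, and COL3A1 had 13770 and 9314 CPM at day 22, against 22070 and 12660 CPM at day 18. Day 18 replicate 1 stood above the other 3 MesoT libraries in both genes.

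**Figure D5:**
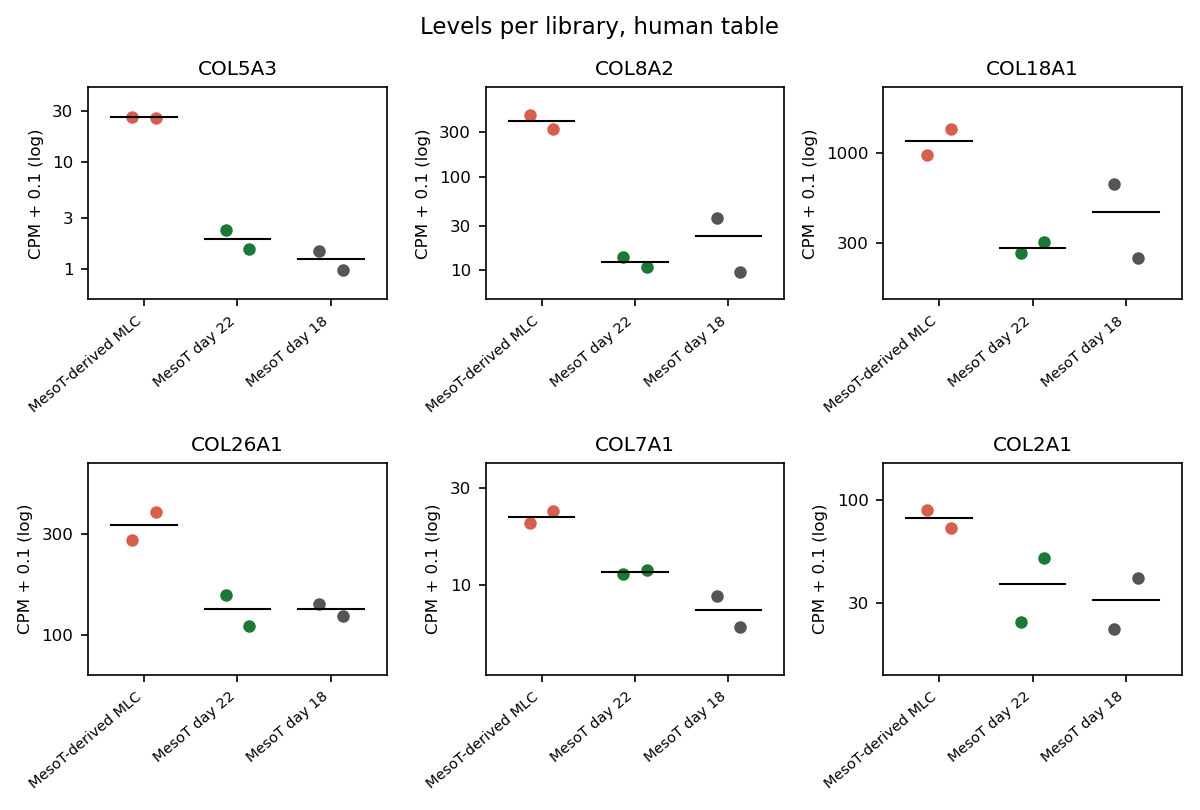
CPM + 0.1 on a log axis in each library of the human table for 6 collagen genes, with a bar at the group mean. COL5A3 is near 26 CPM in both MesoT-derived MLC libraries and at or under 2.198 CPM in the 4 MesoT libraries.

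COL7A1 was the member called higher against MesoT in each of the 4 other cell groups. Its call in MesoT-derived MLC was lost in 6 of 14 alternatives, among them those against day 18 alone and day 22 alone. That in MLC was lost without either MLC library. That in smooth muscle rests on 1 library and was lost with only the groups compared. COL7A1 kept its call in MesoT FCS under each of 11 alternatives. In the order of the separate files it was highest in smooth muscle at 466 CPM, then in MesoT FCS at 40.4 ± 8.40 CPM, MLC at 13.4 ± 1.37 CPM and MesoT day 18 at 5.04 ± 0.75 CPM (SD, n = 2 for the last 3). MLC and MesoT FCS differed by -1.60 ± 0.22 (edgeR adjusted p = 0.00268), so that each neighbouring step of this order except that between smooth muscle and MesoT FCS was tested and called. At day 18 the scaled level of COL7A1 was higher in the human table by 0.6132 and 0.4025 log2 in replicates 1 and 2, with the difference in scaling included.

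The enzymes and receptors of collagen were counted from 5 lists. Against MesoT day 18, MesoT FCS had 5 of 15 genes of prolyl and lysyl modification called higher and 0 lower, 2 of 5 crosslinking enzymes higher and 0 lower, and 1 of 10 folding and secretion genes higher and 0 lower. Over all genes tested 13.0% were called higher, so that the folding and secretion count was near the background. PLOD3, a lysyl hydroxylase, had 275 ± 16.4 CPM in MesoT FCS and 53.5 ± 30.9 CPM at day 18 (log2 fold change 2.36 ± 0.40, edgeR adjusted p = 0.0128). LOXL2, a lysyl oxidase that crosslinks collagen IV, had 1436 ± 74.5 CPM in MesoT FCS and 119.5 ± 99.1 CPM at day 18 (log2 fold change 3.59 ± 0.63, edgeR adjusted p = 0.0138). CREB3L1, a transcription factor of collagen secretion, had 393 ± 0.94 CPM in MesoT FCS and 49.2 ± 35.6 CPM at day 18 (log2 fold change 3.00 ± 0.53, edgeR adjusted p = 0.0137). Of 8 receptors tested, ITGB1 and MRC2 were higher, and of 8 genes of propeptide processing 0 were called. The crosslinking enzymes summed to 2345 and 2049 CPM in MesoT FCS and to 388 and 119 CPM at day 18.

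MLC set against MesoT FCS had 11 of 15 modification genes, 4 of 5 crosslinking enzymes, 5 of 10 folding and secretion genes and 5 of 8 receptors called lower, where 26.3% of all genes were called lower and 48.9% in either direction. MIA3 of the folding and secretion list was called higher, and propeptide processing had 2 of 8 genes higher, ADAMTS2 and ADAMTS3, and 2 lower, TLL2 and PCOLCE2. LOX, a lysyl oxidase, had 7.02 ± 0.16 CPM in MLC and 390 ± 172 CPM in MesoT FCS, differing by -5.80 ± 1.01 on the log2 scale (edgeR adjusted p = 0.00593). SERPINH1, the collagen chaperone HSP47, had 375 ± 0.98 CPM in MLC and 1486 ± 212 CPM in MesoT FCS, differing by -1.99 ± 0.45 on the log2 scale (edgeR adjusted p = 0.0147). Against MesoT day 18, by contrast, MLC had 1 of 15 modification genes lower, P4HA3, 1 of 10 folding and secretion genes higher, MIA3, 2 of 8 receptors lower, ITGA2 and ITGA11, and 0 of 5 crosslinking enzymes called. Propeptide processing had 2 of 8 genes higher, ADAMTS2 and ADAMTS3, and 2 lower, TLL2 and PCOLCE2, with a median log2 fold change of -0.31 over the list. The shares over all genes were 7.83% higher and 16.8% lower. ADAMTS2, the protease that removes the amino-terminal propeptide of fibrillar procollagens, had 92.98 ± 11.4 CPM in MLC and 4.48 ± 1.27 CPM at day 18 (log2 fold change 4.37 ± 0.45, edgeR adjusted p = 0.00184). ITGA11, a subunit of an integrin that binds fibrillar collagen, had 1.26 ± 0.17 CPM in MLC and 49.9 ± 53.6 CPM at day 18 (log2 fold change -5.31 ± 0.97, edgeR adjusted p = 0.0136).

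Smooth muscle had 2 of 5 crosslinking enzymes called higher against day 18, LOXL1 and LOXL3, where 5.08% of all genes were called higher and 3.58% lower. It had 1 of 15 modification genes higher, COLGALT1, 1 of 10 folding and secretion genes higher, CREB3L1, 1 of 8 receptors lower and 1 of 8 propeptide processing genes higher. The last was ADAMTS2, at 40.2 CPM in smooth muscle against 4.48 ± 1.27 CPM at day 18 (log2 fold change 3.16 ± 0.47, edgeR adjusted p = 0.023). DDR2, a receptor tyrosine kinase for fibrillar collagen, was lower at 16.7 CPM in smooth muscle against 118 ± 4.73 CPM at day 18 (log2 fold change -2.82 ± 0.36, edgeR adjusted p = 0.0183). MesoT-derived MLC had 2 of 8 propeptide processing genes higher, TLL2 and ADAMTS3, and 1 of 9 receptors lower, ITGA11 at 2.41 ± 0.79 CPM against 44.2 ± 44.6 CPM in MesoT (SD, n = 2 and n = 4). No modification, crosslinking, folding or secretion gene was called there, and over all genes 6.63% were called higher and 3.32% lower.

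The 11 members never called ran up to 709 CPM, the group mean of COL11A1 in MesoT-derived MLC. COL16A1, a FACIT, reached 508 CPM there. COL13A1, a transmembrane collagen, had 3.54 and 55.6 CPM in the day 18 replicates of the separate files. COL25A1 stayed at or under 54.2 CPM. COL24A1 reached 11.5 CPM in 1 library, COL19A1 6.43 CPM, COL4A4 1.65 CPM, and COL4A3 and COL10A1 0.268 and 0.266 CPM.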

How the data were processed

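Poly-A RNA-seq counts of 11 human samples were used. The authors deposited whole-number counts per Ensembl gene ID. The submitters' processing notes name build hg19 and the tools Subread 1.4.2, featureCounts, Bowtie2 2.2.9 and TopHat2 2.0.13, with no annotation release or strand setting. The labels' protocols list 2 lengths of paired reads and not which sample had which. The 7 separate files and the 6 columns of the human table were scaled (TMM), filtered (filterByExpr) and fitted apart, over all libraries of a set, with edgeR 4.0.16 in R 4.3.3 (3 residual degrees of freedom each). The SE is the log2 fold change divided by the root of F. The fit was run on simulated counts with known fold changes and the same spread setting for every gene. That run cannot show how the fit performs for genes whose replicates differ widely. A group with 0 counts was given a floor of 3 counts, and 1 to 3 counts a 95% exact binomial (Clopper-Pearson) interval. Alternatives were DESeq2 1.42.0 size factors and test, limma 3.58.1 voom, no low-count filter, a replicate block, only the groups compared, the other day 18 counts and each library left out. Of per-sample columns, 4 (mouse) were not used, and 3 ChIP-seq samples were left out, as they hold no RNA. Members, lists and comparisons were chosen with earlier results of these data known. Named are COL1A1, COL2A1, COL4A1, COL7A1, COL14A1, members called in a comparison or with a mean of at least 100 CPM in a group, and up to 3 genes a list by smallest p. Figures used matplotlib 3.10.9.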

Additional observations from a re-analysis of the deposited data

How the results depend on the processing

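With 2 libraries a group and 3 residual degrees of freedom, the counts of called members moved with single libraries, and no called log2 fold change changed sign under any alternative run. Leaving out 1 library at a time, MLC against MesoT day 18 gave 3 to 10 higher and 0 to 9 lower, MesoT FCS against MesoT day 18 gave 3 to 11 and 8 to 18, MLC against MesoT FCS 9 to 13 and 3 to 9, smooth muscle 7 to 15 and 2 to 3, and MesoT-derived MLC 0 to 10 and 0 to 1. Fits that leave 1 library in a group assume that it varies like the other groups. In these fits the number of calls over all genes moved too, though not always in the direction of the member counts. Whether the shifts were particular to collagen genes was not tested. With day 18 counts taken from the human table, which mixes 2 countings in a fit, MLC had 7 lower. Over all genes 9238 were called there, against 5667 in the main fit. Smooth muscle also had more members lower in this setting, and its calls over all genes rose too. With only the groups compared, MesoT FCS had 3 higher, where 3253 genes in all were called against 6301 in the main fit. The smooth muscle fit had 1 residual degree of freedom in this setting and kept none of its member calls. For smooth muscle, 13 were higher with no filter and 13 with DESeq2, and 1 was lower with voom. Calls over all genes rose in these smooth muscle fits too. For MesoT-derived MLC, DESeq2 called 8 higher and 4 lower, where 4604 genes in all were called against 2220 in the main fit. Against day 18 alone and against day 22 alone 2 were higher each, where 380 and 612 genes in all were called. The summed collagen CPM of smooth muscle was 102000, and 92450 by plain library totals. The cause of these shifts was not tested.

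The replicate numbers are shared by the groups, but the labels do not say that they pair the samples. Deviations of same-numbered samples correlated at 0.011 to 0.073 in the separate files and at 0.557 between day 22 and day 18 of the human table, with the others at -0.008 and -0.064. With the replicate block, smooth muscle had 1 member lower and MesoT-derived MLC 1 lower. COL4A1 (adjusted p = 0.055), COL4A2 (0.0561), COL1A1 (0.0655) and COL3A1 (0.0653) in their comparisons with day 18 were among 11 calls lost. Calls gained included COL14A1 lower in MLC (0.0179) and COL2A1 higher in MesoT-derived MLC (0.0493). The 1 member lower in MesoT-derived MLC, against 0 in the main fit, was a further gain, and gains were not counted in full. Size factors of DESeq2 in edgeR left every member call in place and moved the median of all genes by at most 0.0371.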
